A study of Mus musculus with 24 samples.

Results

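Mesothelial marker genes were described in the white and the brown fat of mice fed 3 diets. The set was every array probe whose gene symbol is Msln, Upk3b, Upk1b, Wt1, Lrrn4, Krt7, Krt8, Krt18 or Krt19. Of these 9 genes, 8 had a named probe and were represented by 12 probes, out of 45281 probes and 19053 named genes on the array. Wt1, the transcription factor that marks mesothelium during development, had no named probe and was not analysed here. Each gene was represented by its brightest probe, the one with the highest mean over all arrays, and further probes of Upk3b, Upk1b and Krt8 are given where they bear on a result.

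Illumina mouse expression arrays, 24 in all, measured white adipose tissue (WAT) and brown adipose tissue (BAT) of C57Bl/6J males, 4 arrays for each of 2 tissues on each of 3 diets. The diets were a high-fat diet (HFD) with EPA/DHA, the marine omega-3 fatty acids eicosapentaenoic and docosahexaenoic acid, a HFD with corn oil, and a low-fat diet. The 4 mice of a diet had been picked as representative by body weight and plasma lipids, so they are not a random draw from their group. The labels do not name the white depot, the extraction text names skeletal muscle although the tissue labels name fat, and nothing says whether a BAT and a WAT array with the same number came from 1 mouse.

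Mesothelium is the single sheet of flat epithelial cells that covers the peritoneum, pleura and pericardium and the organs inside them. Visceral fat depots such as the gonadal and mesenteric fat carry this sheet on their surface, while subcutaneous fat and interscapular brown fat do not, so its genes bear on which kind of depot was sampled. Mesothelial cells make mesothelin and uroplakins at their surface and hold simple-epithelial keratins in their cytoskeleton, and they arise from the same embryonic layer as part of the visceral adipocytes.

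Values were log2 expression as deposited by the authors, quantile normalised, and ran between 6.95 and 14.79 with a floor near 7. Nothing in the sources used here tells a plain log2 scale from a variance-stabilised one. Small values may therefore understate a difference, and no fold change is given. Levels are compared between arrays for 1 probe and never between probes. The number of arrays limits the precision. The brown-fat labels fitted their markers, since Ucp1, the uncoupling protein of brown fat, lay between 13.55 and 14.41 in all 12 BAT arrays and between 7.08 and 10.63 in the 12 WAT arrays. In WAT its high values were those of EPA/DHA replicate 2 with 10.63 and corn-oil replicate 4 with 9.38, and results that rest on these arrays are repeated with them left out. In bulk tissue, fewer cells of a type cannot be told apart from less RNA per cell.

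The uroplakins Upk3b and Upk1b and mesothelin had every WAT array above every BAT array. On the low-fat diet all 8 genes were higher in WAT, by between 0.14 for Krt7 and 2.25 for Upk3b on the log2 scale. The uroplakins differed by far more than their spread between arrays, while Lrrn4, Krt7 and Krt19 lay close to the floor of the arrays in both tissues. Mesothelin was also low, with at most 7.55 in WAT and 7.15 in BAT.

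**Figure D1:**
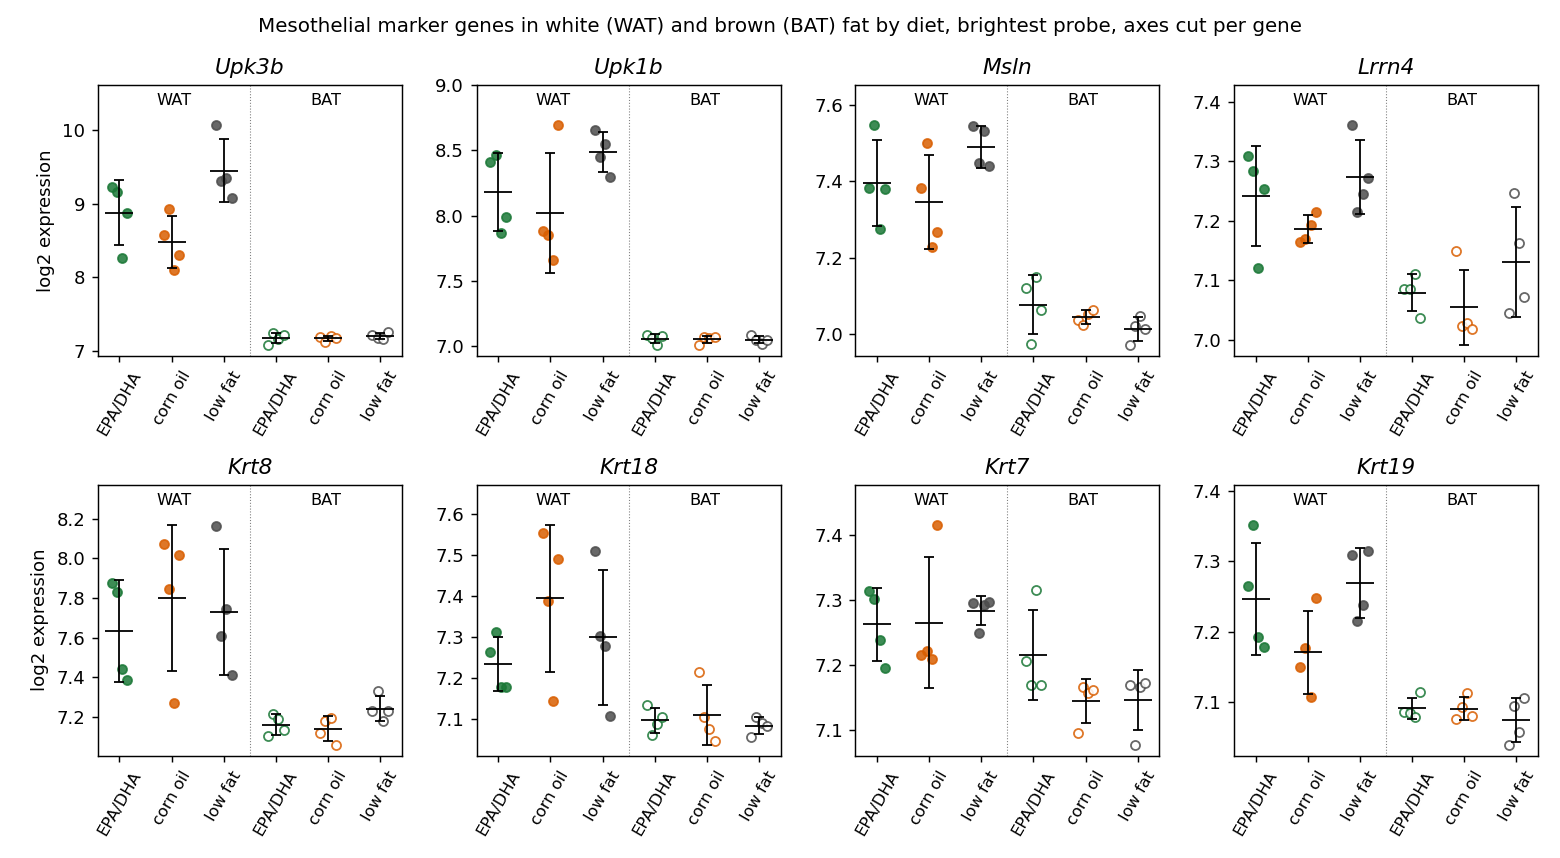
Log2 expression of the brightest probe of each gene (vertical axes, each cut to its gene's range) in the 6 groups of 4 arrays (horizontal axis). Filled points are WAT arrays, open points are BAT arrays, the bar is the mean and the whisker the SD. Upk3b lies between 8.10 and 10.07 in WAT and between 7.08 and 7.25 in BAT, and the corn-oil array with 8.70 for Upk1b stands apart from the others of its group.

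Upk3b encodes uroplakin 3b, a membrane protein of mesothelium and urothelium. Its brightest probe had 9.22, 9.16, 8.26 and 8.87 in WAT on the EPA/DHA HFD, 8.58, 8.92, 8.10 and 8.31 in WAT on the corn-oil HFD, and 10.07, 9.31, 9.35 and 9.08 in WAT on the low-fat diet. In BAT the same probe had 7.08, 7.24, 7.16 and 7.22 on the EPA/DHA HFD, 7.18, 7.11, 7.21 and 7.17 on the corn-oil HFD, and 7.22, 7.18, 7.16 and 7.25 on the low-fat diet. The tissues did not overlap on any diet, and all 12 BAT arrays sat near the floor. WAT minus BAT was 1.70 ± 0.20 (SE, 4 arrays per group) on the EPA/DHA HFD, 1.31 ± 0.20 on the corn-oil HFD and 2.25 ± 0.20 on the low-fat diet, with limma adjusted p of 7.25e-07, 1.83e-05 and 1.02e-08 in that order. The other Upk3b probes also did not overlap between the tissues, with WAT minus BAT of 1.86 ± 0.15 and 0.73 ± 0.10 on the low-fat diet.

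Upk1b encodes uroplakin 1b, a tetraspanin that pairs with uroplakin 3 proteins in the membrane. WAT arrays had 8.41, 8.46, 7.87 and 7.99 on the EPA/DHA HFD, 7.88, 7.85, 7.66 and 8.70 on the corn-oil HFD, and 8.66, 8.45, 8.55 and 8.30 on the low-fat diet. All BAT arrays lay between 7.01 and 7.09. Every WAT array was above every BAT array, and corn-oil replicate 4 was the highest of all. WAT minus BAT was 1.12 ± 0.16 (SE) on the EPA/DHA HFD, 0.97 ± 0.16 on the corn-oil HFD and 1.44 ± 0.16 on the low-fat diet (limma adjusted p = 8.93e-06, 4.48e-05 and 2.41e-07). A dimmer Upk1b probe reached at most 7.20 in any array and did not pass the filter on low values.

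Msln encodes mesothelin, a surface protein anchored by a lipid and the classic marker of mesothelial cells. It had 7.38, 7.55, 7.27 and 7.38 in WAT on the EPA/DHA HFD, 7.38, 7.50, 7.23 and 7.27 in WAT on the corn-oil HFD, and 7.54, 7.45, 7.53 and 7.44 in WAT on the low-fat diet, while BAT arrays lay between 6.97 and 7.15. No WAT array fell as low as a BAT array. The difference, WAT minus BAT, was 0.32 ± 0.06 (SE) on the EPA/DHA HFD, 0.30 ± 0.06 on the corn-oil HFD and 0.48 ± 0.06 on the low-fat diet (limma adjusted p = 1.08e-04, 1.83e-04 and 5.33e-07). Msln, Upk3b and Upk1b were the 3 of 8 genes whose 12 WAT and 12 BAT arrays did not overlap at all, while 11.9% of all genes tested had every WAT array above every BAT array.

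Lrrn4 encodes a leucine-rich repeat membrane protein used as a marker of mesothelial cells in mice. It lay between 7.12 and 7.36 in WAT and between 7.02 and 7.25 in BAT, so the tissues overlapped near the floor. WAT minus BAT was 0.16 ± 0.05 (SE) on the EPA/DHA HFD, 0.13 ± 0.05 on the corn-oil HFD and 0.14 ± 0.05 on the low-fat diet (limma adjusted p = 0.00834, 0.0287 and 0.0168). Without replicate 1 of the low-fat WAT group the low-fat adjusted p was 0.0718, and without BAT replicate 1 or 4 it was 0.0677 or 0.0567. On the corn-oil HFD it lay between 0.0583 and 0.0765 when BAT replicate 2, 3 or 4 or WAT replicate 3 or 4 was left out.

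Krt8 and Krt18 are the partner keratins of simple epithelia, built into 1 filament. Krt8 had 7.88, 7.83, 7.44 and 7.38 in WAT on the EPA/DHA HFD, 8.07, 7.85, 7.27 and 8.02 in WAT on the corn-oil HFD, and 8.16, 7.61, 7.75 and 7.41 in WAT on the low-fat diet. BAT arrays lay between 7.06 and 7.33. Within each WAT group the arrays spread widely, and on each diet all 4 lay above the 4 BAT arrays. WAT minus BAT was 0.47 ± 0.15 (SE) on the EPA/DHA HFD, 0.66 ± 0.15 on the corn-oil HFD and 0.49 ± 0.15 on the low-fat diet (limma adjusted p = 0.0232, 0.00184 and 0.0158). The low-fat difference was 0.35 with an adjusted p of 0.0779 without replicate 1 of that WAT group. On the EPA/DHA HFD the adjusted p was 0.0844 without WAT replicate 1, 0.0773 without WAT replicate 2 and 0.0538 without BAT replicate 1. A second Krt8 probe stayed between 7.07 and 7.21 in both tissues and did not differ past the threshold on any diet (limma adjusted p of 0.727 and above).

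Krt18 lay between 7.11 and 7.55 in WAT and between 7.05 and 7.21 in BAT. Its WAT minus BAT difference was 0.14 ± 0.07 (SE) on the EPA/DHA HFD, 0.28 ± 0.07 on the corn-oil HFD and 0.22 ± 0.07 on the low-fat diet, and the corn-oil and low-fat values passed the test (limma adjusted p = 0.178, 0.00463 and 0.0261). The low-fat adjusted p was 0.122 without replicate 1 of that WAT group, where the difference was 0.15, and 0.0559 without BAT replicate 1. Krt7 and Krt19 are keratins of simple and ductal epithelia. Krt7 lay between 7.20 and 7.42 in WAT and between 7.08 and 7.32 in BAT, with WAT minus BAT of 0.05 ± 0.04, 0.12 ± 0.04 and 0.14 ± 0.04 on the EPA/DHA, corn-oil and low-fat diets (limma adjusted p = 0.443, 0.0320 and 0.0142). Without corn-oil WAT replicate 4 the corn-oil difference of Krt7 was 0.07 (limma adjusted p = 0.154), and without BAT replicate 1 it was 0.10 (adjusted p = 0.0951). On the low-fat diet the adjusted p of Krt7 was 0.0535 without BAT replicate 2. Krt19 lay between 7.11 and 7.35 in WAT and between 7.04 and 7.11 in BAT, with WAT minus BAT of 0.16 ± 0.03, 0.08 ± 0.03 and 0.19 ± 0.03 on those diets (limma adjusted p = 0.00139, 0.0822 and 1.21e-04). Without corn-oil WAT replicate 3 the corn-oil difference of Krt19 was 0.10 (adjusted p = 0.0394).

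As a set, 6 of the 8 genes were called higher in WAT at an adjusted p under 0.05 on the EPA/DHA HFD, 7 on the corn-oil HFD and 8 on the low-fat diet, and none lower. Of all 14262 genes tested, 37.7% were called in either direction and 20.1% higher in WAT on the EPA/DHA HFD, 41.1% and 22.8% on the corn-oil HFD, and 43.7% and 23.3% on the low-fat diet. A large share of all genes therefore differed between the tissues as well. The median difference of the 8 genes was 0.24, 0.29 and 0.35 log2 units on these diets, beside a median over all genes tested of -0.00, -0.00 and -0.01. All 8 genes passed the filter on low values in WAT, and Krt7, Krt8 and Upk3b passed it in BAT, so the other 5 entered the comparison through WAT. Leaving out replicate 1 of the low-fat WAT group brought the low-fat count to 5.

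**Figure D2:**
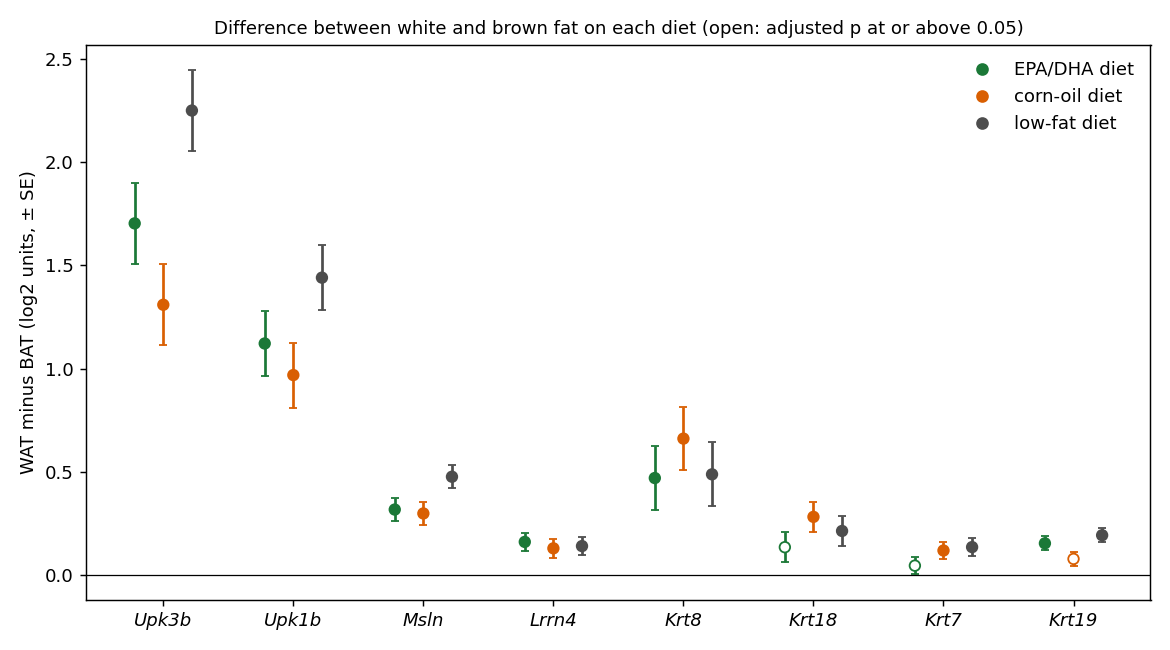
WAT minus BAT difference (vertical axis, log2 units, bars are ± SE) of each gene (horizontal axis) on each diet, from 4 arrays per group. Filled points have an adjusted p under 0.05. Upk3b and Upk1b stand above the other genes on every diet, and the open points are Krt18 and Krt7 on the EPA/DHA HFD and Krt19 on the corn-oil HFD.

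The question within each tissue was whether diet changed these genes. The comparisons of 1 tissue share their arrays, so they are not independent. In WAT, limma called 0 of the 8 genes in any of the diet comparisons, where 2.34% of all genes were called between the EPA/DHA and corn-oil HFDs, 0.03% between the EPA/DHA HFD and the low-fat diet, and 3.87% between the corn-oil HFD and the low-fat diet. At an unadjusted p under 0.05 there were 0, 0 and 2 of the 8 genes, the last being Upk3b and Krt19, beside 17.6%, 9.06% and 19.7% of all genes, so these counts were near or below the background. The median difference of the 8 genes was 0.05 for EPA/DHA minus corn oil, -0.08 for EPA/DHA minus low fat and -0.09 for corn oil minus low fat. In BAT, limma called 0 of the 3 genes tested in each comparison, where the share of all genes called was 0% between the HFDs, 0.00746% for EPA/DHA against low fat and 0% for corn oil against low fat. At an unadjusted p under 0.05 there were 0, 0 and 1 of the 3 in BAT, the last being Krt8, beside 4.99%, 4.77% and 9.1% of all genes.

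Upk3b was nearest to the threshold. In WAT all 4 corn-oil values lay below all 4 low-fat values at each of its 3 probes, with means of 8.48 ± 0.35 on the corn-oil HFD and 9.45 ± 0.43 on the low-fat diet at the brightest probe (SD, 4 arrays each). Corn oil minus low fat was -0.97 ± 0.26 (SE, limma adjusted p = 0.0829) at this probe, and -0.77 ± 0.20 (adjusted p = 0.0743) and -0.42 ± 0.13 (adjusted p = 0.131) at the others. The EPA/DHA mean of 8.88 ± 0.44 (SD) stood between them, with EPA/DHA minus corn oil of 0.40 ± 0.26 (SE, adjusted p = 0.553) and EPA/DHA minus low fat of -0.57 ± 0.26 (adjusted p = 0.665). This call depended on the fit. The corn-oil difference of the brightest probe passed the test in 1 fit over all 24 arrays (-0.97, limma adjusted p = 0.00762) and with the mean of the liver genes as a covariate (-1.06, adjusted p = 0.0397). The fit over all 24 arrays pools the spread of both tissues. The SD of this probe lay between 0.04 and 0.07 in the BAT groups, near the floor, and between 0.35 and 0.44 in the WAT groups. The adjusted p of that fit therefore rests in part on the narrow BAT spread. Every test of WAT minus BAT and of the difference between tissues also pools the spread of both tissues. For Krt8 the SD lay between 0.26 and 0.37 in the WAT groups and between 0.05 and 0.06 in the BAT groups.

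Corn oil minus low fat in WAT was -0.47 ± 0.21 (SE) for Upk1b, -0.15 ± 0.07 for Msln, -0.10 ± 0.04 for Krt19 and -0.09 ± 0.04 for Lrrn4, with limma adjusted p of 0.312, 0.320, 0.296 and 0.348. Lrrn4 also had no overlap between the corn-oil and low-fat arrays, which made 2 of 8 genes together with Upk3b, where 12.4% of all genes tested did not overlap in this comparison. For Krt8, Krt18 and Krt7 the difference was 0.07 ± 0.21, 0.10 ± 0.09 and -0.02 ± 0.05. When corn-oil replicate 4 and EPA/DHA replicate 2, the arrays with raised Ucp1, were left out, Upk1b was lower on corn oil by -0.69 (limma adjusted p = 0.0458), the 1 gene called then. The omission was chosen after seeing the data. Corn-oil replicate 4 had the highest Upk1b value of its group, 8.70, so leaving it out lowers the corn-oil mean by construction. With 1 array left out at a time, 0 genes were called. No gene's diet difference was called as unequal between WAT and BAT: the test of the difference between tissues called 0 of 8 genes by limma for EPA/DHA minus corn oil, EPA/DHA minus low fat and corn oil minus low fat, beside 0.252%, 0.00701% and 0.652% of all genes. At an unadjusted p under 0.05 these counts were 0, 0 and 4 of 8, beside 8.45%, 6.44% and 13.1% of all genes. The tissue difference in the corn-oil effect was -0.94 ± 0.28 (SE) for Upk3b (limma adjusted p = 0.155), and for Upk1b it was -0.70 (adjusted p = 0.0251) without the 2 arrays with raised Ucp1. The limit of that omission holds for this Upk1b value too.

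Pairs of the 8 genes were correlated over the 12 WAT arrays once each diet's mean had been subtracted. Of their 28 pairs, 27 had a positive Pearson correlation, with a median of 0.52, while 50.1% of all pairs among the 13349 genes tested in WAT were positive, with a median of 0.00. Pairs share arrays and genes, and several fell below 0 without the 2 farthest arrays, such as Upk3b with Lrrn4 (0.69 with all arrays and -0.27 without those 2). Past the adjusted threshold of a permutation test within diets (two-sided, 100000 resamples, adjusted over 28 pairs) were 3 pairs. Krt8 with Krt18 had r = 0.95 (permutation p = 8.3e-04, adjusted p = 0.0232) and rho = 0.95 (permutation p = 0.00101, adjusted p = 0.0141). Without the 2 arrays farthest from the median of Krt8, r was 0.82 (permutation adjusted p = 0.0743), so the call was lost. Leaving out such arrays also narrows the range and leaves 10 arrays, which by itself weakens the test. Msln with Upk3b had r = 0.80 (permutation p = 0.00382, adjusted p = 0.0362) and rho = 0.88 (permutation p = 6.5e-04, adjusted p = 0.0141), and r was 0.81 without the 2 farthest arrays (adjusted p = 0.0174). For Krt7 with Krt19, r was 0.76 (permutation p = 0.00388, adjusted p = 0.0362), rho was 0.83 (permutation p = 0.00315, adjusted p = 0.0294), and r was 0.88 without the 2 farthest arrays (adjusted p = 0.0174).

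**Figure D3:**
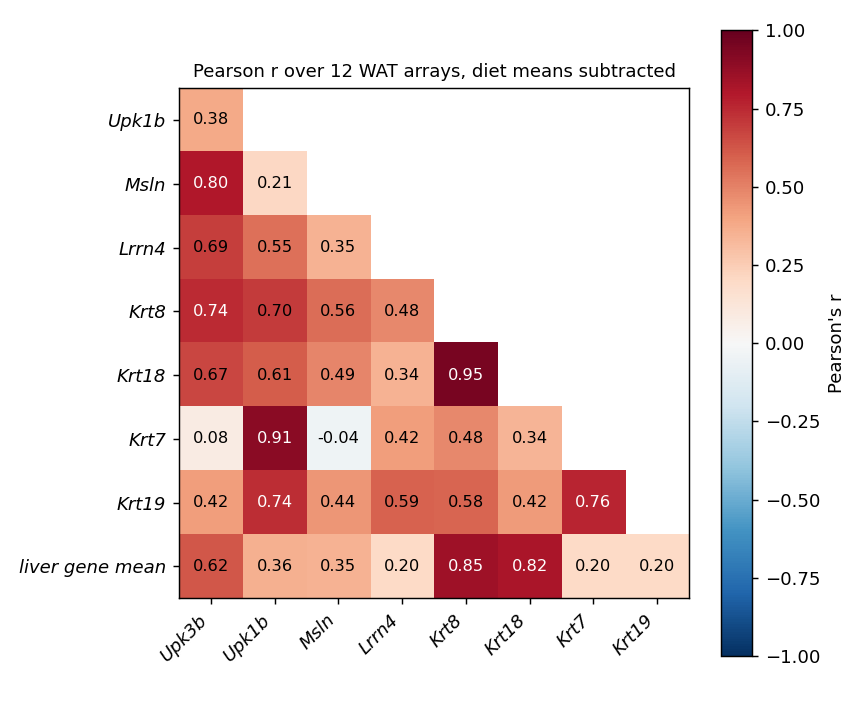
Pearson correlation between pairs of genes over the 12 WAT arrays with each diet's mean subtracted (rows and columns are genes, colour is r, the last row is the mean of the liver genes). Krt8 with Krt18 has the highest value, 0.95, Msln with Krt7 the lowest, -0.04, and the liver mean has 0.85 with Krt8 and 0.82 with Krt18.

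Krt8 and Krt18, which hepatocytes also make, moved with genes known from liver. Of 12 such genes 9 passed the filter in WAT. On the low-fat diet 8 of these 9 were called higher in WAT than in BAT. Among all genes tested, 23.3% were called higher in WAT on that diet and 43.7% in either direction. Called genes included Apoa2 and Ttr, which encode a plasma apolipoprotein and transthyretin. Their differences were 4.66 ± 0.76 and 4.60 ± 0.68 (SE, limma adjusted p = 4.78e-05 and 1.27e-05). The 9 genes also held Cyp2e1, between 14.05 and 14.51 in WAT and between 8.83 and 11.22 in BAT. Serpinc1, another of the 9, lay near the floor, between 7.13 and 7.33 in WAT. The mean of the 9 genes ranged over 9.38 to 11.66 in WAT on the EPA/DHA HFD, 9.47 to 12.32 on the corn-oil HFD and 9.63 to 12.21 on the low-fat diet, against 7.59 to 8.33, 7.34 to 7.90 and 7.54 to 7.89 in BAT. The probes of Alb, Fgb and Tat did not pass the filter, and Alb, which encodes albumin, lay between 7.02 and 7.13 in all 24 arrays. With the mean of these genes, Krt8 had r = 0.85 (permutation p = 0.00577, adjusted p over 8 genes = 0.0282) and rho = 0.85 (permutation p = 0.00736, adjusted p = 0.0589) over the 12 WAT arrays. Krt18 had r = 0.82 (permutation p = 0.00706, adjusted p = 0.0282) and rho = 0.72 (permutation p = 0.0236, adjusted p = 0.0942). Without the 2 arrays farthest from the median of the liver mean, r was 0.59 for Krt8 and 0.47 for Krt18 (permutation adjusted p = 0.740 for both). Neither call held without those arrays, and leaving them out also narrows the range and the number of arrays. Upk3b had r = 0.62 with the liver mean (permutation p = 0.0574, adjusted p = 0.153), and the other 5 genes had r between 0.20 and 0.36. The part of these liver genes in the level of Krt8 and Krt18 was not tested.

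Upk1b and Krt7 stood out in 1 WAT array, replicate 4 of the corn-oil HFD. It had 8.70 for Upk1b, where the other 3 arrays of the group had between 7.66 and 7.88, and 7.42 for Krt7, where the others had between 7.21 and 7.22. The same array had raised values of the uroplakins that are known mainly from bladder urothelium. Upk2 was 8.00 there and between 7.05 and 7.11 in the other corn-oil WAT arrays, Upk3a was 7.55 and between 7.09 and 7.13, and Upk1a was 7.37 and between 7.08 and 7.15. The mean of Upk1a, Upk2 and Upk3a was 7.64 in this array and at most 7.24 in the other 23. Cldn4, a tight-junction claudin of barrier epithelia, was 7.35 in it and at most 7.17 in the other WAT arrays. Upk3b and Msln were not raised there, with 8.31 and 7.27, and Ucp1 was 9.38. Without this array the correlation between Upk3b and Upk1b over WAT arrays was 0.83 in place of 0.38, and that between Msln and Upk1b 0.75 in place of 0.21, given as a description. The part of urothelial RNA in the Upk1b value of this array was not tested. The Upk1b difference between WAT and BAT on the corn-oil HFD was 0.75 without it, and the leave-one-out fits gave adjusted p of at most 2.31e-04 by limma.

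**Figure D4:**
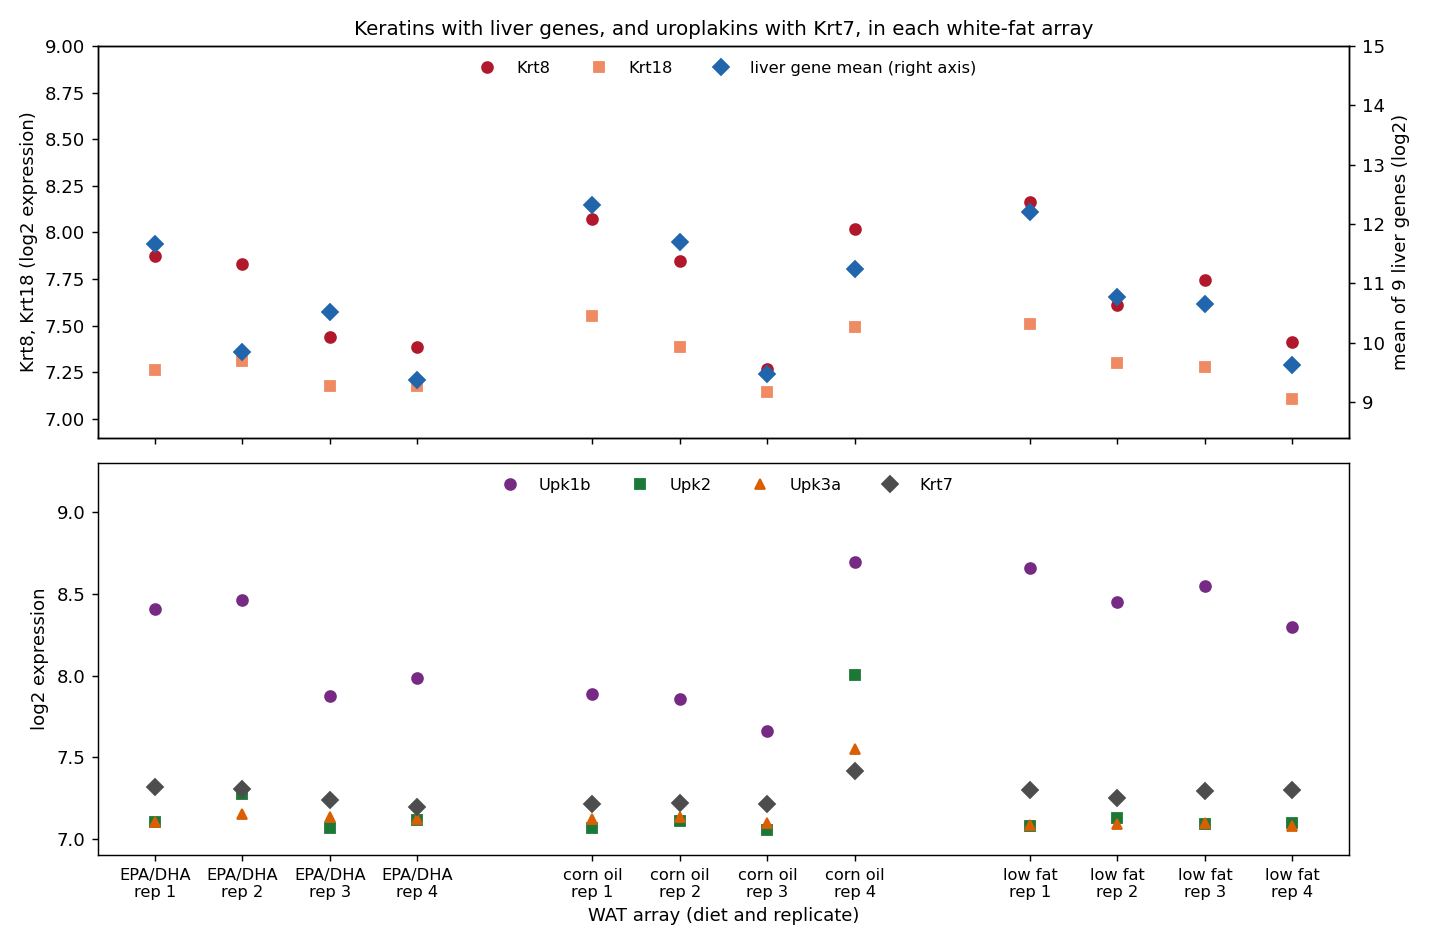
Values of each of the 12 WAT arrays (horizontal axis, diet and replicate). The upper panel has Krt8 and Krt18 (left axis, log2 expression) with the mean of the 9 liver genes (right axis, log2), and the lower panel has Upk1b, Upk2, Upk3a and Krt7 (log2 expression). Corn-oil replicate 4 has 8.70 for Upk1b and 8.00 for Upk2, and the array with the lowest Krt8, corn-oil replicate 3 with 7.27, also has a low liver mean of 9.47.

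Further genes known from mesothelium followed the uroplakins in part. Of 13 such genes 11 had a named probe and 10 were tested. All 10 passed the filter on low values in WAT and 7 in BAT, so the others entered the comparison through WAT. On the low-fat diet 6 of the 10 were called higher in WAT, 1 lower and 3 not at all. Of all genes tested, 43.7% were called in either direction on that diet and 23.3% higher in WAT. The median difference of the 10 genes was 0.15, beside -0.01 over all genes tested. The 4 with the largest difference were Pdpn, which encodes the surface glycoprotein podoplanin, with 2.27 ± 0.13 (SE), Cldn15, a claudin of the junctions, with 1.59 ± 0.15, Gata6, a transcription factor of visceral peritoneal tissue, with 1.20 ± 0.12, and Gpm6a, a membrane glycoprotein, with 0.57 ± 0.08. Their limma adjusted p was 2.75e-11, 3.98e-08, 4.49e-08 and 4.16e-06. None of the 4 overlapped between the 12 WAT and 12 BAT arrays, but they were picked by their difference in these same data. Of all genes tested, 11.9% had every WAT array above every BAT array. Every other gene of this list with a probe overlapped at its brightest probe. Cdh2 lay the other way, with medians of 7.17 in WAT and 7.29 in BAT. Pdpn is also made by lymphatic endothelium, fibroblasts and macrophages, and Gata6 also by peritoneal macrophages. On the EPA/DHA HFD 5 of the 10 genes were called higher and 0 lower, beside 20.1% of all genes higher and 37.7% in either direction. On the corn-oil HFD 5 were called higher and 1 lower, beside 22.8% and 41.1% of all genes.

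Limma called 0 of these 10 genes in any WAT diet comparison, with 1, 1 and 2 at an unadjusted p under 0.05 for EPA/DHA minus corn oil, EPA/DHA minus low fat and corn oil minus low fat, close to the 17.6%, 9.06% and 19.7% of all genes. Gata6 had 8.24, 8.27, 8.21 and 8.18 in WAT on the corn-oil HFD, against 8.83, 8.39, 8.43 and 8.83 on the low-fat diet. These groups did not overlap, and corn oil minus low fat was -0.39 (limma adjusted p = 0.179). Gpm6a did not overlap either, with -0.26 (adjusted p = 0.214). Both were named after their values were seen, and 12.4% of all genes tested did not overlap in this comparison.

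Genes known to differ between white depots were set beside them, since the arrays hold 1 white depot and the comparison with BAT does not compare white depots. Of 7 tested genes known to be higher in visceral than subcutaneous fat, 3 were called higher in WAT and 1 lower on the low-fat diet. These were Agt, the precursor of angiotensin, with 1.75 ± 0.12 (SE, limma adjusted p = 4.34e-10), Thbd, which encodes thrombomodulin and is also made by mesothelial and endothelial cells, with 1.65 ± 0.16 (adjusted p = 5.47e-08), Tcf21, a transcription factor of visceral mesoderm, with 0.09 ± 0.03 (adjusted p = 0.0254), and the homeobox gene Hoxa5 with -1.44 ± 0.13 (adjusted p = 2.10e-08). Thbd was also lower on the corn-oil HFD than on the low-fat diet in WAT, by -0.81 (limma adjusted p = 0.0266), with no overlap between the arrays. Between these diets 3.87% of all genes tested in WAT were called and 12.4% did not overlap. Of 6 tested genes known to be higher in subcutaneous fat, 4 were called higher in WAT and 0 lower on the low-fat diet, where 5 of the 6, and 51.5% of all genes, had an unadjusted p under 0.05. They were the homeobox genes Hoxc9 with 2.50 ± 0.11 (adjusted p = 3.41e-13), Hoxc10 with 0.88 ± 0.09 (adjusted p = 6.43e-08) and En1 with 0.31 ± 0.07 (adjusted p = 0.00222), and Sfrp2, a secreted Wnt modulator, with 0.51 ± 0.09 (adjusted p = 1.59e-04). Tbx15 and Shox2 of that list had -0.01 and -0.13 (adjusted p = 0.863 and 0.0625). Of all genes tested, 43.7% were called on the low-fat diet and 23.3% higher in WAT. On the corn-oil HFD, 3 genes of the visceral list were called higher and 1 lower. Of the subcutaneous list 4 were higher and 0 lower there, beside 22.8% of all genes higher. On the EPA/DHA HFD the visceral list had 2 higher and 1 lower. The subcutaneous list had 3 higher and 1 lower there, beside 20.1% of all genes higher. Both depot lists therefore held genes higher in WAT. In BAT 6 of the 7 visceral and 4 of the 6 subcutaneous genes passed the filter on low values. The rest entered the comparison through WAT, among them Hoxc9 and Hoxc10, with BAT medians of 7.07 and 7.11.

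Of 11 epithelial genes outside the mesothelial lists, 8 were tested and 1 was called higher in WAT on the low-fat diet, the basal keratin Krt14 with 0.17 ± 0.05 (SE, limma adjusted p = 0.0212). Krt14 was also the 1 call on the EPA/DHA HFD, with 0.22 (adjusted p = 0.00368). On the corn-oil HFD the calls were Cldn3, a claudin, higher in WAT by 0.25 (adjusted p = 7.82e-04), and Elf3, an epithelial transcription factor, with -0.12 (adjusted p = 0.0131). The 12 WAT arrays of Cldn3, between 7.13 and 7.52, did not overlap with the BAT arrays, which reached at most 7.11. Every WAT array lay above every BAT array in 11.9% of all genes tested. Background for each list here is the share of all genes called. Higher in WAT were 20.1% on the EPA/DHA HFD, 22.8% on the corn-oil HFD and 23.3% on the low-fat diet. In either direction the shares were 37.7%, 41.1% and 43.7% in that order. All 8 epithelial genes tested passed the filter in WAT and 4 in BAT. The mean of these 8 genes ranged between 7.14 and 7.23 in WAT and between 7.13 and 7.22 in BAT. Of 8 genes of the epididymis, the duct that borders the gonadal depot in males, 7 had a probe and 3 passed the filter, with a mean between 7.10 and 7.20 in WAT and between 7.18 and 7.33 in BAT. The 1 call among them was Cst11 on the EPA/DHA HFD and on the low-fat diet, with WAT minus BAT of -0.17 on both (limma adjusted p = 0.0164 and 0.0136), and Lcn8 on the corn-oil HFD with -0.13 (adjusted p = 0.0393). Of 4 tested exocrine pancreas genes, the elastase gene Cela1 was called higher in WAT on the low-fat diet, by 0.78 ± 0.14 (adjusted p = 1.81e-04). It was also higher in WAT on the corn-oil HFD than on the low-fat diet, by 0.98 (adjusted p = 0.00582). Between these diets 3.87% of all genes tested in WAT were called. On the EPA/DHA HFD the WAT mean of Cela1 was 8.79, against 9.65 on the corn-oil HFD. Cpa1, Cpb1 and Ctrb1, the other 3 tested, lay near the floor, with at most 7.20 in WAT. Their corn oil minus low fat was -0.06, 0.01 and -0.01 (limma adjusted p = 0.114, 0.832 and 0.908).

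The genes whose pattern over the 12 WAT arrays was most like that of Msln, Upk3b, Upk1b and Lrrn4 were ranked by Pearson correlation with the mean z-score of these 4 genes, each diet's mean subtracted, among 13341 genes. The first 6 were Slc35c1 with r = 0.95, Bnc1 with 0.95, Gm5512 with 0.94, Pabpc4l with 0.93, Chml with 0.93 and Neurl3 with 0.93, given as a description without a test. Bnc1, a zinc-finger protein known from mesothelium and keratinocytes, was on the list of further mesothelial genes. It lay between 7.07 and 7.36 in WAT and between 7.06 and 7.17 in BAT, with WAT minus BAT of 0.17 ± 0.04 (SE, limma adjusted p = 0.00257) on the low-fat diet. Slc35c1, the Golgi GDP-fucose transporter, lay between 9.24 and 9.63 in WAT and between 8.77 and 9.84 in BAT. Neurl3, a ubiquitin ligase, lay between 7.31 and 7.60 in WAT and between 7.15 and 7.38 in BAT. Gm5512 ran the other way with no overlap, between 8.64 and 9.23 in WAT and between 10.24 and 10.78 in BAT. Pabpc4l and Chml lay between 7.08 and 7.18 in WAT and between 7.06 and 7.23 in BAT, near the floor. Without low-fat replicate 1 the correlations of these 6 genes lay between 0.91 and 0.95.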

How the data were processed

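Total RNA of 24 tissue samples had been hybridised to Illumina mouse arrays. The deposited table holds log2 values per probe that the authors made with lumi 2.18.0, per the submitters' processing notes. Once sorted, the values of all arrays were equal to within 0.0069, which hides any change in total signal. Of 45281 probes 34885 had 1 gene symbol in the platform annotation, 18 had several and 10378 none, and 34818 were matched to RefSeq (GRCm38.p6 names). The members and gene lists were chosen with earlier results of these data known. Named were all probes of the members, up to 4 called genes per further list with the largest WAT minus BAT difference on the low-fat diet, and the 6 genes most like the members. Values outside that rule, those of Cldn3, Elf3, Lcn8, Gata6, Gpm6a, Cdh2, Thbd, Cela1, Tbx15, Shox2, Alb, Cldn4 and the uroplakins outside the set were added after their values were seen. The same holds for Cyp2e1, Serpinc1, Cpa1, Cpb1 and Ctrb1.

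Probes at or above the 40th percentile of a tissue's mean (7.11 in both tissues) were tested, 27168 in each tissue and 29493 in either. Limma 3.58.1 in R 4.3.3 (lmFit, eBayes) was fitted to the 12 arrays of a tissue for diets, and to all 24 arrays for WAT minus BAT and for the difference between tissues, with Benjamini-Hochberg adjustment over all tested probes and a threshold of 0.05. Counts of genes use the brightest probe. The test was checked on simulated data. Correlations used numpy 2.4.6 and 100000 permutations within diets. No 2 arrays were duplicates (highest correlation 0.9958). Per the labels, the 4 arrays of a group were 4 mice. Same-numbered arrays of a diet in both tissues had correlated deviations between -0.19 and 0.07, and none of 12 was above 0.1, and within a tissue not every same-numbered pair was above it, so the numbers were not taken to pair samples. Alternatives were other filters, median centring, renewed quantile normalization, other variance priors, a replicate block, 1 fit over all arrays, liver genes as a covariate and leaving out arrays.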

Additional observations from a re-analysis of the deposited data

Results flagged for a closer look

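Values were flagged where 1 array of a group of 4 lay far from the other 3 relative to the range of the group. This held for 9 of 96 groups checked (16 probes of the members and of Upk1a, Upk2 and Upk3a in 6 groups), and chance alone flags about 1 in 20 groups. In corn-oil WAT replicate 4, Upk2 was 8.00, Upk3a was 7.55 and Krt7 was 7.42, each above the other arrays of the group. Krt7 was also low in low-fat WAT replicate 2 with 7.25, in corn-oil BAT replicate 1 with 7.10 and in low-fat BAT replicate 2 with 7.08. A second Upk1a probe was low in low-fat WAT replicate 1 with 7.01. Lrrn4 was high in corn-oil BAT replicate 1 with 7.15, and a dimmer Upk3b probe was low in low-fat BAT replicate 4 with 7.05.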

How the results depend on the processing

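No called result was reversed under any alternative run. For WAT minus BAT of single probes, 179 values kept their side of the threshold and 5 lost their call under the alternatives that kept all replicates or left out both WAT arrays with raised Ucp1, and 246 kept their side, 17 lost their call and 1 gained one with 1 array left out. The count of genes called for corn oil minus low fat in WAT was 1 in place of 0 with a replicate block (Upk3b, -0.97, limma adjusted p = 0.0453), in 1 fit over all 24 arrays (Upk3b, adjusted p = 0.00762), with the liver genes as a covariate (Upk3b, adjusted p = 0.0397) and without both WAT arrays with raised Ucp1, an alternative chosen after seeing the data (Upk1b, adjusted p = 0.0458). The count for the difference between tissues in corn oil minus low fat was 1 without those arrays (Upk1b, adjusted p = 0.0251). The cause was not tested. With the replicate block, Lrrn4 lost its WAT minus BAT call on the low-fat diet (adjusted p = 0.0678) and on the corn-oil HFD (adjusted p = 0.0957). Leaving out 1 array at a time gave 5 to 6 genes for WAT minus BAT on the EPA/DHA HFD, 5 to 7 on the corn-oil HFD and 5 to 8 on the low-fat diet, the lowest of these without low-fat WAT replicate 1, and 0 in every diet comparison and in every difference between tissues. Same-numbered arrays had correlations between -0.27 and 0.54 within WAT, 7 of 12 above 0.1, and between -0.36 and 0.43 within BAT, 5 of 12. The WAT pairs of replicate 1 had 0.54, 0.50 and 0.44. That replicate also had the highest liver mean and the highest Krt8 value of its WAT group on each diet. The permutations within diets treat these arrays as exchangeable with the others. Correlated pairs numbered 4 in place of 3 without the 2 farthest arrays, and the set changed. Msln with Upk3b and Krt7 with Krt19 kept their call, and Krt8 with Krt18 lost it (permutation adjusted p = 0.0743). Upk1b with Krt8 (permutation adjusted p = 0.02025) and Upk1b with Krt18 (adjusted p = 0.0258) gained one. Signal near the floor limits Msln, Lrrn4, Krt7, Krt18 and Krt19, whose differences may be understated.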
